A study of Mus musculus with 8 samples.

Results

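H3K9ac, an acetylation of histone H3 found at active promoters, was examined by ChIP-seq at 9 genes of the B lineage, *Pax5*, *Ebf1*, *Vpreb1*, *Igll1*, *Cd79a*, *Cd79b*, *Blnk*, *Ms4a1* and *Cd22*. The genes were chosen by name, out of 21938 protein-coding genes, and every peak within 1 kb of any annotated TSS or over the gene body was collected. The libraries came from bone marrow (BM) cells, which the labels call whole marrow, of C57BL/6 mice that carry the *NUP98-HOXD13* transgene, a fusion gene used as a model of myelodysplastic syndrome that progresses to leukaemia. The study asked how curcumin, given weekly at 20 mg/kg by i.p. injection, changes histone acetylation in mice with different forms of GFI1, a zinc finger repressor of transcription. The groups were *GFI1-36S*, *GFI1-36N*, in which asparagine replaces a serine, and *GFI1-KD*, in which less GFI1 is expressed, each with vehicle (DMSO) and with curcumin. All 6 groups share the transgene, and each is 1 library. The study describes frozen BM cells and in 1 place names c-kit+ cells, a progenitor fraction. Because a group is 1 library, a difference within a genotype could not be set against replicates and is given without a test. The ages of the mice and the number of mice behind a library are not given in the sources used here. The mice were killed when they showed overt leukaemia or reduced health, so the marrow is not healthy marrow. In whole marrow, fewer B-lineage cells and less acetylation per cell cannot be told apart.

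B-cell development starts from lymphoid progenitors under the transcription factors EBF1 and PAX5, which switch on the B-cell program. A pre-B cell pairs its new immunoglobulin heavy chain with the surrogate light chain, made of VpreB and the product of *Igll1*. CD79A and CD79B carry the signal of the pre-B-cell receptor and later of the B-cell receptor (BCR) into the cell, and the adaptor BLNK links the receptor to its enzymes. CD20, the product of *Ms4a1*, and CD22, an inhibitory coreceptor, mark the surface of later stages.

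The 6 lists held between 20354 and 49213 peaks, and between 12700 and 16484 of them lay at the promoter of a protein-coding gene. The lists carry no read totals. Whole fragment counts at the summits were recovered for 98.6% to 99.9% of the peaks in each list, and the weakest promoter peak held between 13 and 17 fragments. The *GFI1-36S* curcumin library stood apart from the other 5. It had the fewest peaks, was the only one with peaks on chromosome Y (3 peaks), and had a promoter peak at 14 of 14 T-cell genes, 1 of 18 neutrophil genes, 2 of 10 progenitor genes and 2 of 11 erythroid genes. In the other 5 libraries these counts were 6 to 9, 9 to 17, 9 to 10 and 6 to 11. The file names of the *GFI1-36S* lists give the opposite treatments to the labels. The labels were followed here, and for the comparisons of this pair the value with the treatments exchanged is given as well. For *GFI1-36N*, the file names give different *GFI1* genotypes for the vehicle and the curcumin mouse, which the labels do not state.

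The sequences of the promoters that the results turn on are shown first, so that the positions of the peaks can be read against them. RefSeq promoter windows (GRCm38.p6, from 250 bases before to 50 bases after the start, 5′ to 3′ on the strand of the gene) matched 7 of the 9 genes, and *Cd79b* and *Ms4a1* have no entry. Capitals mark matches, on either strand, to the cores of EBF1 (CCCNNGGG), the octamer (ATGCAAAT), PU.1 (GAGGAA), Ikaros (TGGGAA) and GFI1 (AAATCA). E-boxes (CANNTG) are not in capitals, and EBF1 and Ikaros cores may share bases. *Vpreb1* (chr16:16869206-16869505, minus strand) and its neighbour *Top3b* (chr16:16870486-16870785, plus strand), which encodes a topoisomerase, are shown because a single peak was assigned to both, although it covered the second window and not the first.
Vpreb1: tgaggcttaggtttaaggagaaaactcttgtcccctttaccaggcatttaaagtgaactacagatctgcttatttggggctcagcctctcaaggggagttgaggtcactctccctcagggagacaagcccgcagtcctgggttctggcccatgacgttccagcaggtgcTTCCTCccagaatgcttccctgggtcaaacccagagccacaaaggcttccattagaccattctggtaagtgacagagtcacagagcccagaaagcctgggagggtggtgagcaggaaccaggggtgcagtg
Top3b: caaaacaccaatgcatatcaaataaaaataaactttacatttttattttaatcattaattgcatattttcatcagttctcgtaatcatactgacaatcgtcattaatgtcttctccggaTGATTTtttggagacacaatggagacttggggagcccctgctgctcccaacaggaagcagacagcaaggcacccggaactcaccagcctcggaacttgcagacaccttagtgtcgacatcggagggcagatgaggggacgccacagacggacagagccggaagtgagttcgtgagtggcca
*Pax5* (chr4:44710645-44710944, minus strand) is shown as the richest in CpG of the 7 members with a window, with 23, and without a promoter peak in any library.
Pax5: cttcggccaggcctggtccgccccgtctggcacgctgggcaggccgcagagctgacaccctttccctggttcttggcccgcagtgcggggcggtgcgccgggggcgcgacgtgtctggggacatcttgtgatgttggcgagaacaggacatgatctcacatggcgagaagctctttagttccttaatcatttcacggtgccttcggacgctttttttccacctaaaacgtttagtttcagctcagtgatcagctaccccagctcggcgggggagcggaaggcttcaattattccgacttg
The 2 windows of *Ebf1* (chr11:44617850-44618149 and chr11:44619978-44620277, plus strand) are shown because both lay whole under peaks in the *GFI1-KD* vehicle library and in no other.
Ebf1, first start: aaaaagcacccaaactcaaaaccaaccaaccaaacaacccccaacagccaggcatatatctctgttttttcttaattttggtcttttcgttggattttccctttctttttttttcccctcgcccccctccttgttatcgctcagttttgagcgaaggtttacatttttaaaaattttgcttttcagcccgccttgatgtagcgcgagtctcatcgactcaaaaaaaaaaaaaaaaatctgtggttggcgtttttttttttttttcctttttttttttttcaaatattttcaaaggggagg
Ebf1, second start: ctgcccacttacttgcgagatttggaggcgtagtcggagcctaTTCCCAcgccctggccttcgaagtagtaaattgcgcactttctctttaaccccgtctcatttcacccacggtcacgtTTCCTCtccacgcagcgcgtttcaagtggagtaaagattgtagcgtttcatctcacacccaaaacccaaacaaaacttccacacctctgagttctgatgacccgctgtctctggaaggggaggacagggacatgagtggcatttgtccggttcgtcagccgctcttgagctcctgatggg
*Blnk* (chr19:40994172-40994471, minus strand) and *Cd79a* (chr7:24897247-24897546, plus strand) are shown for the weak peaks near their starts. A peak covered the *Blnk* window in *GFI1-KD* vehicle alone and the *Cd79a* window in no library.
Blnk: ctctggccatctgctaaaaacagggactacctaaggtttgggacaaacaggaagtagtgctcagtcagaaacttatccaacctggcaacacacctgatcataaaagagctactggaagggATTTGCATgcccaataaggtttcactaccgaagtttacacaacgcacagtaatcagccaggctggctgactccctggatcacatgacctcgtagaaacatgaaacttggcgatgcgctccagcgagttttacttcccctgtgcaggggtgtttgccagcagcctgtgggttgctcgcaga
Cd79a: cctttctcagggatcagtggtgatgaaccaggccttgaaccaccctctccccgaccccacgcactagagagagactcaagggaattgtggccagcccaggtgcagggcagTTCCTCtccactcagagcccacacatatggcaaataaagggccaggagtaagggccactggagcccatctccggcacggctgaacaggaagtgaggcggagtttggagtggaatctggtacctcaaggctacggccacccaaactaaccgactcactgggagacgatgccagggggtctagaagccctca

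CpG content differed among these windows. A peak was counted for a gene at any of its TSSs, so it need not lie on the window. The windows of *Vpreb1*, *Igll1*, *Cd22*, *Cd79a* and *Pax5* were covered by 0 bases of peak in every library. The CpG counts below are therefore descriptions, and their relation to the number of libraries with a peak was not tested. The median promoter of the series with a peak in all 6 libraries had 22 CpG in 300 bases, that with a peak in 1 to 5 libraries 11, and that with no peak 4. *Vpreb1* and *Igll1* had 2 CpG each, *Cd22* 4, *Blnk* 7, *Cd79a* 8, the *Ebf1* windows 9 and 17, and *Pax5* 23. The genes of the surrogate light chain thus lay below the median of promoters without a peak, and *Pax5* lay above the median of those with a peak in every library. Of 6051 promoters with at least 23 CpG, 12.3% had, like *Pax5*, no peak in any library, and 74.8% had one in all 6.

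Motif matches were few. The EBF1 core, found in 16.0% of all 20125 promoter windows of this length, was present at *Igll1* and *Cd22*, once each, where the matched bases were CCCAGGGG and CCCTGGGG. The PU.1 core (27.2% of all windows) was present at *Cd79a*, *Igll1*, *Vpreb1* and the second start of *Ebf1*. The octamer, found in 1.56% of windows, was present at *Blnk* alone, with its first base at −130 from the start. The Ikaros core (24.3% of windows) was present at *Cd22* and the second start of *Ebf1*. The GFI1 core (12.2% of windows) was present in no window of the members and in that of *Top3b*. E-boxes are common, in 68.7% of windows, and were absent from the first *Ebf1* window alone. These matches describe letters and do not show binding.

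Of the 9 genes, 6 had a promoter peak in at most 2 of the 6 libraries, and the count per library was below the share of all genes in 5 libraries and level with it in *GFI1-KD* vehicle. A promoter peak was present at 2 of the 9 genes with vehicle and at 1 with curcumin in *GFI1-36S*, where 53.1% and 45.3% of all protein-coding genes had one. In *GFI1-36N* the counts were 4 and 3, against 53.0% and 55.3% of all genes. In *GFI1-KD* they were 5 and 3, against 54.9% and 51.8%. *Pax5*, *Igll1* and *Ms4a1* had a promoter peak in no library, *Ebf1* and *Cd79a* in 1, *Cd22* in 2, *Blnk* in 3, *Cd79b* in 5 and *Vpreb1* in all 6. Over all protein-coding genes, 41.2% had a peak in no library and 43.4% in all 6. Of the 9 genes, 5 had a peak in 1 to 5 libraries. Of all genes, 3.28%, 2.02%, 1.60%, 1.86% and 6.65% had one in 1, 2, 3, 4 and 5 libraries. A gene without a listed peak is one where acetylation was not detectable at the depth of that list, not one where it is absent. To set lists of unequal size side by side, the strongest promoter peak of a gene was given a rank by its fold enrichment within its own list, from 0 for no peak to 100 for the highest.

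**Figure D1:**
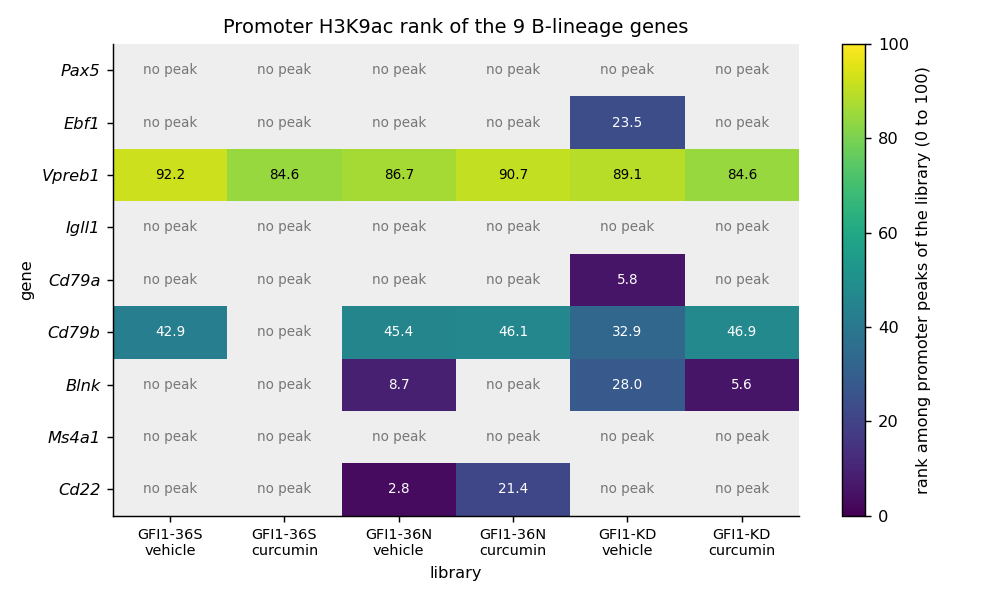
Rank of the strongest promoter peak of each of the 9 genes (rows) in each of the 6 libraries (columns), on a scale from 0 to 100 among the promoter peaks of the library, with grey cells for no peak. *Vpreb1* ranked from 84.6 to 92.2 in all 6 libraries, *Cd79b* from 32.9 to 46.9 in 5, and every other peak ranked below 30.

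The pairs of libraries were compared by presence and by rank. In *GFI1-36S*, 1 of the 2 genes with a peak in the pair had it with vehicle alone (*Cd79b*), against 16.5% of all genes with a peak in the pair, and none had it with curcumin alone, against 2.03%. A rank lower by at least 10 points with curcumin was seen at 1 of the 2 (46.6% of all such genes) and a higher rank at none (11.1%). With the treatments exchanged, *Cd79b* had its peak with curcumin alone and the rank was higher at 1 of the 2. In *GFI1-36N*, 1 of 4 genes had the peak with vehicle alone (*Blnk*, against 1.84% of all genes) and none with curcumin alone (5.93%). This call for *Blnk* rests on the window, since the curcumin library had a *Blnk* peak of nearly the same fold enrichment (3.29 against 3.31) at 1232 bp from the TSS. No member ranked lower by at least 10 points (6.9% of all genes) and 1 ranked higher (*Cd22*, against 24.3%). In *GFI1-KD*, 2 of 5 genes had the peak with vehicle alone (*Ebf1* and *Cd79a*, against 6.79% of all genes) and none with curcumin alone (1.25%). Both peaks stood low in the vehicle list, at ranks 23.5 and 5.77, while the shares cover promoters of every rank. The curcumin list also held fewer peaks (30784 against 39272). *Ebf1* and *Blnk* ranked lower by at least 10 points (22.8% of all genes) and *Cd79b* ranked higher (7.11%). The median rank change over the 9 genes was 0 in each pair, since most had no peak. Over the members with a peak in the pair it was −25.3 in *GFI1-36S* (2 genes), 2.33 in *GFI1-36N* (4 genes) and −5.77 in *GFI1-KD* (5 genes), beside −8.56, 3.53 and −2.78 over all genes with a peak in the pair. The *GFI1-36S* values became 25.3 and 8.56 with the treatments exchanged. *Vpreb1*, whose peak is also that of its neighbour *Top3b*, is among the members counted in each pair. Without it, the *GFI1-36S* value rests on *Cd79b* alone, at −42.9 as labelled. With so few genes, these counts describe single promoters and not the lineage.

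Among the transcription factors, *Pax5*, which holds cells in the B lineage, had no promoter peak in any of the 6 libraries. The gene lies on chromosome 4 from 44524757 to 44710487 on the minus strand, with 7 annotated TSSs. Its only listed acetylation lay in introns of the *GFI1-36N* libraries. The vehicle library had 1 intronic peak of 204 bp with a fold enrichment of 4.17 and 28 fragments at the summit. The curcumin library had 2, of 787 bp and 521 bp, with fold enrichments of 4.33 and 3.98. None of the 3 coincided with another, and the nearest TSS of another protein-coding gene lay at least 83230 bp away. Noncoding genes were not included in this search. They covered 0.110% of the gene with vehicle and 0.704% with curcumin. The promoter window printed above was covered by 0 bases of peak in every library.

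*Ebf1*, which acts upstream of and together with *Pax5*, had peaks in the *GFI1-KD* vehicle library alone. The gene lies on the plus strand of chromosome 11 from 44617317 to 45008091. The promoter peak ran from 44617758 to 44619119 (1362 bp), with a fold enrichment of 5.22 and 37 fragments at the summit (95% Poisson interval 26.1 to 51.0, counting error only), which placed it at rank 23.5. A second peak from 44619755 to 44620331 (577 bp) had a fold enrichment of 3.44 and 24 fragments. The first peak covered the first of the printed windows and the second peak the second, each by all 300 bases. These windows follow RefSeq starts, while promoter peaks were counted by GENCODE TSSs. The edge of the second peak lay 1430 bp from the nearest GENCODE TSS, so it did not count as a promoter peak. No peak was listed over any part of the gene in the other 5 libraries, including *GFI1-KD* curcumin.

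The genes of the surrogate light chain stand next to each other on chromosome 16 and gave opposite readings under the same rule. *Igll1* (16860671 to 16863985) had no peak within 1 kb of its TSS and none over the gene in any library. *Vpreb1* (16868403 to 16870843) had one in all 6. The fold enrichment of the *GFI1-36S* peak was 30.9 with vehicle and 17.3 with curcumin. The *GFI1-36N* values were 24.9 and 31.2, and the *GFI1-KD* values 33.2 and 26.8. In the same order the summits held 183, 96, 172, 179, 242 and 161 fragments and the peaks were 2202, 1196, 1692, 1808, 1762 and 1650 bp wide. The *GFI1-36S* curcumin library was lowest in all 3 measures, while by rank it was level with *GFI1-KD* curcumin at 84.6, and *GFI1-36S* vehicle was highest at 92.2.

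The *Vpreb1* peak belongs to a shared stretch of promoter. The strongest promoter peak of *Top3b* was the same peak in each of the 6 libraries, and its summit lay 9 to 66 bp from a TSS of *Top3b*. Only noncoding transcripts of *Vpreb1* start there, the farthest 1588 bp upstream of the start of its coding transcript at 16869255. Measured from that start, the near edge of the peak lay 1056, 1505, 1107, 1138, 1073 and 1118 bp away in the order above, just outside the window in each library. With TSSs of coding transcripts alone, *Vpreb1* therefore had a promoter peak in 0 of 6 libraries. The *Vpreb1* window printed above held 0 bases of peak in every library, while that of *Top3b* was covered by all 300 bases in 5 libraries and by 26 bases in *GFI1-36S* curcumin. With *Vpreb1* left out, 1 of the remaining members had a promoter peak with *GFI1-36S* vehicle and 0 with curcumin. The *GFI1-36N* libraries kept 3 and 2, and the *GFI1-KD* libraries 4 and 2.

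The heights of the summits were set side by side within a pair after division by the genome background of each list, which scales for depth. The curcumin over vehicle ratio at the *Vpreb1* and *Top3b* peak was 0.551 in *GFI1-36S* (95% interval 0.426 to 0.709, counting error only), 1.29 in *GFI1-36N* (1.04 to 1.60) and 0.825 in *GFI1-KD* (0.671 to 1.01). The medians over all promoters with a peak in both libraries were 0.585 (9690 promoters), 1.24 (11391) and 0.892 (11208). Each of these medians lay within the counting interval of the peak in the same pair. With the treatments of *GFI1-36S* exchanged, the ratio at the peak was 1.82 (1.41 to 2.35) and the median 1.71.

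**Figure D2:**
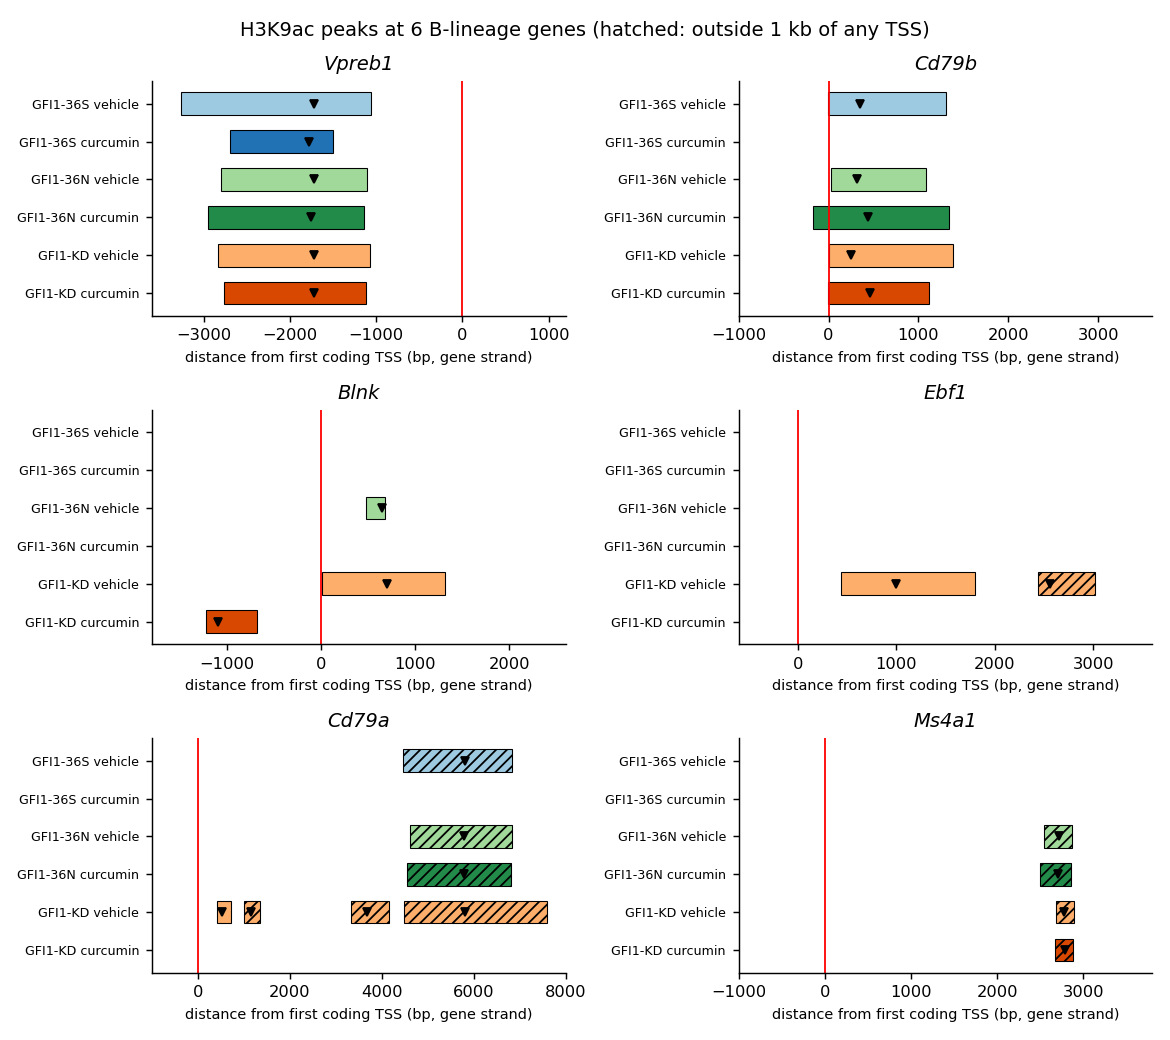
Position of the listed peaks at 6 of the genes, as distance in bp from the most upstream coding TSS (red line, 0) along the strand of the gene, with 1 row per library. Bars span a peak, triangles mark its summit, and hatching marks peaks farther than 1 kb from every GENCODE TSS of the gene shown. The *Vpreb1* peaks end 1056 to 1505 bp short of the coding TSS, the *Cd79b* peaks lie at or just after it, and the strong *Cd79a* peaks overlap the 3′ end of the gene with their summits beyond it.

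Of the signalling chains of the receptor, *Cd79b* had a peak of its own in 5 libraries, more than any other of the 9 genes apart from *Vpreb1*, and *Cd79a* had hardly any. *Cd79b* lies on the minus strand of chromosome 11 from 106311341 to 106314762, and no TSS of another protein-coding gene lay nearer than 12431 bp to a summit. Noncoding genes were not searched. Its fold enrichment was 10.4 with *GFI1-36S* vehicle, 10.8 and 11.4 with *GFI1-36N* vehicle and curcumin, and 7.95 and 13.6 with *GFI1-KD* vehicle and curcumin, and no peak was listed with *GFI1-36S* curcumin. The ranks were 42.9, 45.4, 46.1, 32.9 and 46.9 in the libraries with a peak. The summits held 61, 74, 65, 57 and 81 fragments and lay 252 to 466 bp after the first coding TSS, and the peaks were 1054 to 1512 bp wide and covered 30.8% to 40.4% of the short gene.

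*Cd79b* therefore had a peak of medium strength in 5 libraries and none in the library that stood apart. In *GFI1-36N* the 2 summits did not differ beyond counting error, with a curcumin over vehicle ratio of height of 1.09 (0.767 to 1.54). In *GFI1-KD* the ratio was 1.76 (1.24 to 2.52), above 1 and above the median of 0.892 over all promoters. The rank rose by 13.9 points, and 7.11% of all genes with a peak in the pair rose by at least 10. The summits lay at different places in overlapping peaks, 252 bp after the first coding TSS with vehicle and 466 bp with curcumin. In *GFI1-36S* the rank fell by 42.9 points with the treatments as labelled and rose by 42.9 with the treatments exchanged. The interval covers counting error only and not the difference between mice.

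*Cd79a*, on the plus strand of chromosome 7 from 24897381 to 24902197, had a promoter peak in *GFI1-KD* vehicle alone. That peak was 300 bp wide, with a fold enrichment of 3.17, 22 fragments at the summit (13.8 to 33.3) and rank 5.77, and it lay 523 bp after the TSS by its summit. The printed window of *Cd79a* was covered by 0 bases of it. The same library had 3 more peaks over the gene, with fold enrichments of 2.89, 3.71 and 24.1, and 37.3% of the gene was covered. The strongest of them belonged to the next gene. It contained the TSS of *Arhgef1*, which begins 715 bp after the end of *Cd79a*, with the summit 107 bp from a TSS of that gene. A peak of this kind reached into the 3′ end of *Cd79a* also in *GFI1-36S* vehicle and in *GFI1-36N* vehicle and curcumin, with fold enrichments of 22.0, 16.1 and 23.4. Apart from it, no peak over *Cd79a* was listed in the other 5 libraries.

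*Blnk*, the adaptor of pre-BCR signalling on the minus strand of chromosome 19 from 40928927 to 40994535, had a promoter peak in 3 libraries. The fold enrichment was 3.31 in *GFI1-36N* vehicle, 6.31 in *GFI1-KD* vehicle and 3.49 in *GFI1-KD* curcumin, with ranks of 8.73, 28.0 and 5.65. The summits held 22 (13.8 to 33.3), 45 (32.8 to 60.2) and 20 (12.2 to 30.9) fragments, and the peaks were 208, 1307 and 534 bp wide. Only the *GFI1-KD* vehicle peak covered the printed window and its octamer. The *GFI1-KD* curcumin peak was another one, with the summit at −1095 bp from the first TSS and the near edge 688 bp away, and the curcumin over vehicle ratio of height, 0.551 (0.308 to 0.952), compares these different positions. The same library had a further peak deep in the gene, with a fold enrichment of 3.82. The *GFI1-36N* curcumin library had a peak of 290 bp upstream, 1232 bp from the nearest TSS, with a fold enrichment of 3.29. With a window of 3 kb it counted, and the rank change in *GFI1-36N* turned from −8.73 to 2.35.

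*Ms4a1* and *Cd22* stand for later B cells. *Ms4a1*, on the minus strand of chromosome 19 from 11249675 to 11266241, had no promoter peak, but 4 libraries had a small peak at the same intronic place. The fold enrichment there was 3.60 and 3.81 in *GFI1-36N* vehicle and curcumin and 3.06 and 2.86 in *GFI1-KD* vehicle and curcumin. The summits held 24, 21, 28 and 24 fragments, and the near edge lay 2397 to 2582 bp from the nearest TSS. Neither *GFI1-36S* library had a peak over the gene. *Cd22*, on the minus strand of chromosome 7 from 30865402 to 30880342, has 15 annotated TSSs and had a promoter peak in *GFI1-36N* alone. The vehicle peak was 198 bp wide with a fold enrichment of 2.88, 19 fragments (11.4 to 29.7) and rank 2.78. The curcumin peak was 477 bp wide with a fold enrichment of 4.15, 23 fragments (14.6 to 34.5) and rank 21.4. The peaks lay at different TSSs, with summits 458 and 6949 bp after the first coding TSS, and the ratio of their heights, 1.50 (0.781 to 2.91), had an interval that contains 1. With TSSs of coding transcripts alone, the curcumin peak no longer counted and the rank change of 18.6 points became −1.87.

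**Figure D3:**
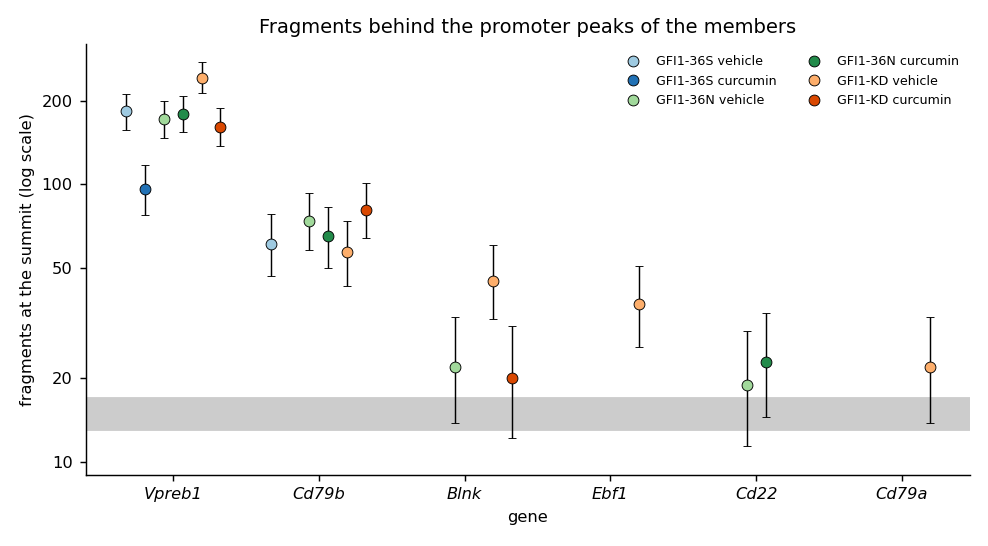
Fragments at the summit of the strongest promoter peak of each gene and library, on a log scale, with 95% Poisson intervals that cover counting error only. The grey band spans the weakest promoter peak of the 6 lists, 13 to 17 fragments, and the peaks of *Cd22* and *Cd79a* and 2 of the 3 *Blnk* peaks have intervals that reach into it.

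The window of 1 kb decided some of these readings. The peak just inside it was that of *Blnk* in *GFI1-KD* curcumin, with its edge 688 bp from the nearest TSS and a fold enrichment of 3.49. Just outside lay the second *Cd79a* peak of *GFI1-KD* vehicle (1010 bp, fold enrichment 2.89), a peak upstream of *Igll1* in *GFI1-36N* curcumin (1101 bp, fold enrichment 2.99), and the *Blnk* peaks of *GFI1-36N* curcumin (1232 bp, fold enrichment 3.29) and *GFI1-KD* curcumin (1314 bp, fold enrichment 2.41). With a window of 3 kb, *Igll1* had a peak in 1 library, *Ms4a1* in 4 and *Blnk* in 4, while *Pax5* still had none. With a −log10 q of at least 5, *Cd79a* had none, *Blnk* and *Cd22* had 1 each, and the counts of *Vpreb1*, *Cd79b* and *Ebf1* stayed at 6, 5 and 1.

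The immunoglobulin constant genes were examined by any peak over the gene, as a further check of the label. *Ighm*, the heavy chain of the pre-BCR, had 1 peak in each *GFI1-36N* library, with fold enrichments of 4.46 with vehicle and 3.29 with curcumin. *Igkc* had 1 in *GFI1-36S* vehicle, with a fold enrichment of 3.21. *Ighd* and *Iglc1* had none in any library. The median promoter peak of a library had a fold enrichment of 9.62 to 15.5.

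A list of 35 other genes of B-lineage development, which shares no gene with the 9, was given by its counts. It had a promoter peak at 21 and 14 genes with vehicle and curcumin in *GFI1-36S* and at 19 and 20 for *GFI1-36N*. The counts in the *GFI1-KD* libraries were 24 and 18. Over all protein-coding genes the shares in the same order were 53.1%, 45.3%, 53.0%, 55.3%, 54.9% and 51.8%. The list lay below that share in *GFI1-36S* curcumin (40.0%) and above it in *GFI1-36S* vehicle (21 of 35) and *GFI1-KD* vehicle (68.6%). It was about level with that share in *GFI1-36N* vehicle (54.3%), *GFI1-36N* curcumin (57.1%) and *GFI1-KD* curcumin (51.4%). Of the 35, 9 had a peak in all 6 libraries and 7 in none, against 43.4% and 41.2% of all protein-coding genes. Among the genes in none were *Cr2*, *Fcer2a*, *Fcmr*, *Vpreb2*, a relative of *Vpreb1*, *Rag1*, which cuts the receptor genes for rearrangement, and *Spib*. The genes in all 6 were *Cd37* and *Tnfrsf13c*, the BAFF receptor, on the surface, *Lyn* and *Dapp1* in signalling, and the transcription factors *Tcf3*, *Ikzf1*, *Ikzf3*, *Foxo1* and *Irf8*. By role, 5 of 12 transcription factors, 2 of 10 signalling genes, 2 of 9 surface genes, 0 of 3 recombination genes and 0 of 1 cytokine receptor had a peak in every library. *Ikzf1*, the gene of Ikaros, ranked highest of the list in 4 libraries and *Lyn* in the other 2 (96.5 in *GFI1-36N* vehicle and 92.7 in *GFI1-KD* curcumin). The ranks of *Ikzf1* were 94.4, 99.8, 96.4, 95.2, 97.5 and 74.3 in the library order used above.

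**Figure D4:**
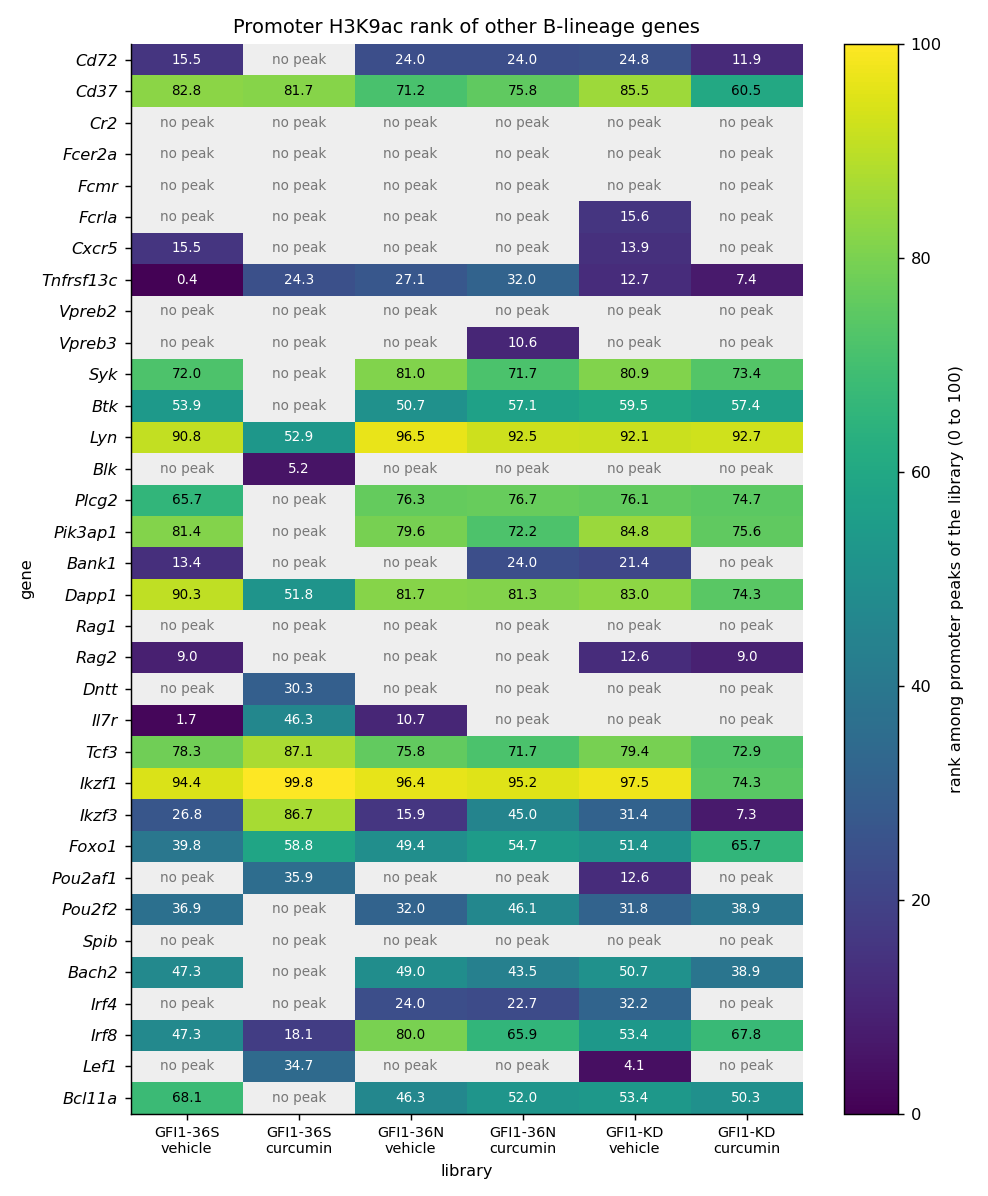
Rank of the strongest promoter peak of 34 of the 35 other B-lineage genes (rows) in the 6 libraries (columns), from 0 to 100 among the promoter peaks of the library, with grey cells for no peak. *Cr2*, *Fcer2a*, *Fcmr*, *Vpreb2*, *Rag1* and *Spib* are grey throughout, and the *GFI1-36S* curcumin column lacks *Syk*, *Btk*, *Plcg2* and *Pik3ap1*, which rank above 50 in the other 5.

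Between vehicle and curcumin, these genes changed in both directions. In *GFI1-36S*, 11 of the 25 with a peak in the pair had it with vehicle alone and 4 with curcumin alone (16.5% and 2.03% of all genes). A rank lower by at least 10 points was found at 13 and a higher one at 7 (46.6% and 11.1%). The widest falls were at *Pik3ap1*, *Syk* and *Bcl11a*, from ranks of 81.4, 72.0 and 68.1 to no peak. The widest rises were at *Ikzf3* (26.8 to 86.7), *Il7r*, the receptor of interleukin 7 on lymphoid progenitors and T cells (1.68 to 46.3), and *Pou2af1* (no peak to 35.9). The rises and falls of this pair stood beside the 14 of 14 T-cell promoters and the 1 of 18 neutrophil promoters of the curcumin library, and the part of these other cells in them was not tested. With the treatments exchanged, rises and falls change places.

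In *GFI1-36N*, 21 of the 35 genes had a peak in the pair, 1 with vehicle alone and 2 with curcumin alone (1.84% and 5.93% of all genes), and 2 ranked lower and 4 higher by at least 10 points (6.9% and 24.3%). The falls were widest at *Irf8* (80.0 to 65.9), *Il7r* (10.7 to no peak) and *Syk* (81.0 to 71.7), and the rises at *Ikzf3* (15.9 to 45.0), *Bank1* (no peak to 24.0) and *Pou2f2* (32.0 to 46.1). In *GFI1-KD*, 24 had a peak in the pair, 6 with vehicle alone and 0 with curcumin alone (6.79% and 1.25%), and 10 ranked lower and 2 higher (22.8% and 7.11%). The falls were widest at *Irf4* (32.2 to no peak), *Cd37* (85.5 to 60.5) and *Ikzf3* (31.4 to 7.32), and the rises at *Foxo1* (51.4 to 65.7), *Irf8* (53.4 to 67.8) and *Pou2f2* (31.8 to 38.9). *Ikzf3*, the gene of Aiolos, thus ranked higher with curcumin in *GFI1-36N* and lower in *GFI1-KD*. Over the genes of the list with a peak in the pair, the median change was −13.4, 0.048 and −8.10 in *GFI1-36S*, *-36N* and *-KD*, beside −8.56, 3.53 and −2.78 over all genes.

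**Figure D5:**
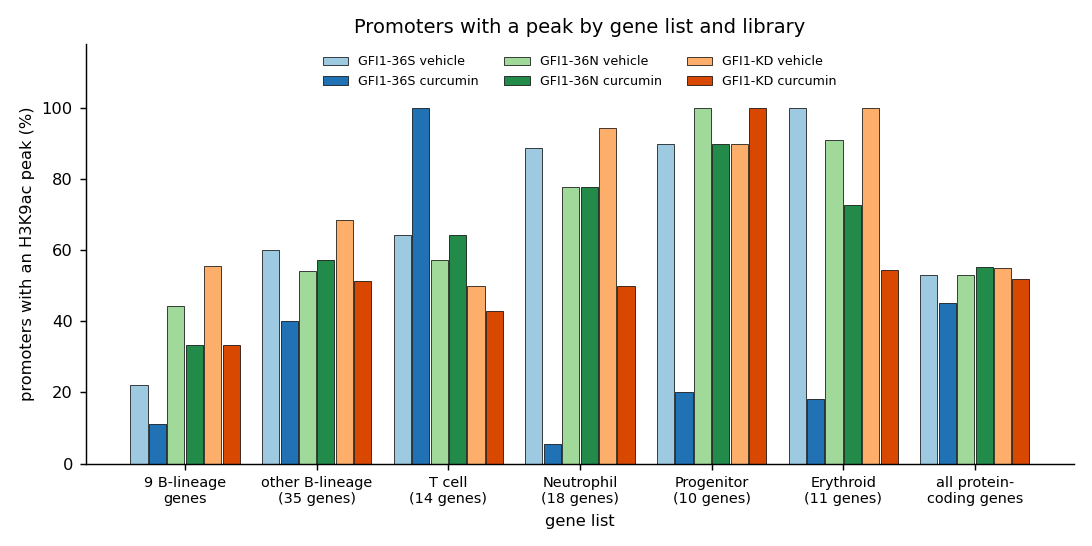
Percentage of promoters with an H3K9ac peak (vertical axis) for the 9 B-lineage genes, 35 other B-lineage genes, 4 lists of other blood cells and all protein-coding genes, with 1 bar per library. The 9 genes lie at 11.1% to 55.6%, the 35 at 40.0% to 68.6%, and the *GFI1-36S* curcumin bars are highest for T-cell genes and lowest for the other 3 blood cell lists.

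The counts of promoters with a peak in the B-lineage lists were highest in *GFI1-KD* vehicle, at 5 of the 9 genes and 24 of the 35. These are 55.6% and 68.6%, beside 54.9% of all protein-coding genes in that library, so the 9 were level with all genes. The 5 include *Vpreb1*, whose peak is also that of *Top3b*. This library alone had a promoter peak at *Ebf1* and at *Cd79a* and a peak over the *Blnk* start. Its promoters of *Pax5*, *Igll1*, *Ms4a1* and *Cd22* had no peak, and it also lacked peaks over *Ighm* and *Igkc*. It also had a promoter peak at 17 of 18 neutrophil genes and 11 of 11 erythroid genes, against 9 and 6 with curcumin, and at 9 and 10 of 10 progenitor genes with vehicle and curcumin. Its median promoter peak was the widest, 1550 bp against 831 to 1302.5 bp in the other 5 libraries. The part of these in the B-lineage peaks was not tested. No marker list shares a gene with the 9.

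The genes whose ranks were nearest to the median ranks of the 9 (0 in 5 libraries and 5.77 in *GFI1-KD* vehicle) were *Alox12*, *Boll*, *Ccdc89*, *Cdo1* and *Cep126*, each with a mean absolute difference of 0 over the 6 libraries. They are the first by name of 13 genes that tie at this value, each with a weak promoter peak in *GFI1-KD* vehicle alone. The median ranks equal those of *Cd79a*, whose peak in that library held 22 fragments. The tie therefore describes a single weak peak and not the 9 genes together.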

How the data were processed

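H3K9ac ChIP-seq was analysed in 6 libraries of BM cells, 1 per group. The 2 control samples (input and rabbit IgG) were not used here. Per the study's methods, reads were trimmed (Trim Galore) and mapped (BWA-MEM, mm10), and the authors called the peaks of every library by MACS2 and dropped those in black list regions. Versions, thresholds and the control of each list are not given in the sources used here. As a deposited fold enrichment, each peak has the ratio of its summit pileup to the background around it. The deposited −log10 p and −log10 q and the integer score also come from the authors' peak caller, and the score was not used. Values are not normalized between libraries, so ranks within a list were compared.

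Genes and TSSs were those of GENCODE M21. A promoter peak overlapped 1 kb on either side of any TSS by at least 1 bp. Fragments at the summit were recovered from fold enrichment and −log10 p (tolerance 0.002), with exact Poisson intervals. Heights were divided by the recovered genome background. Python 3.11.15, numpy 2.4.6, scipy 1.17.1, pandas 2.3.3 and matplotlib 3.10.9 were used. The recovery of fragments was tested on simulated peaks, and the assignment of peaks to promoters was checked on the *GFI1-KD* vehicle list. Named were all 9 members, the 3 widest rises and falls per genotype among 35 other B-lineage genes, 4 immunoglobulin genes and the 5 genes nearest in rank to the members' medians. Of the 35, 1 is not reported by name here. Any other gene was picked with its values in view. The members, lists, motifs and naming rule were chosen with earlier results of these data known. Alternatives varied the threshold, the number of peaks, the window, the overlap, the TSSs, the ranks and the *GFI1-36S* labels, and took the genotypes as pairs.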

Additional observations from a re-analysis of the deposited data

Results flagged for a closer look

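*Cd79b* was singled out because its promoter peak moved in opposite directions with curcumin in 2 genotypes. The change in rank was −42.92 in *GFI1-36S*, where the peak was listed with vehicle alone, and 13.94 in *GFI1-KD*, where it was listed in both libraries. With 1 library per group the difference was not tested. The *GFI1-36S* value rests on the curcumin library that stood apart from the other 5 and takes the other sign with the treatments exchanged, and the direction in both genotypes is then the same.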

How the results depend on the processing

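No paired analysis was possible within a genotype because each group holds 1 library. With the 3 genotypes as pairs, chosen after seeing the data, an exact two-sided sign-flip permutation test of the rank change cannot go below p = 0.25. It gave p of 0.5 to 1 for the 6 members with a peak, and 0.25 for *Cd79b* (mean change 19.2 ± 21.6, SD, n = 3) with the *GFI1-36S* treatments exchanged. *Ebf1*, *Cd79a* and *Cd22* changed in a single genotype, so their p was fixed in advance and tells nothing of the change. For *Blnk*, unchanged in *GFI1-36S*, p cannot go below 0.5. Among the settings applied to the counts of members with a promoter peak and to their median rank change, 62 of 70 values stayed within 1.5 times the count or 10 rank points. The median changes are 0 or near it throughout, which says little of stability. With a −log10 q of at least 5, and with the 20354 top peaks of each list, the *GFI1-36N* vehicle count went from 4 to 2. A window of 3 kb raised the *GFI1-36N* curcumin count from 3 to 6. In alternatives chosen after seeing the data, TSSs of coding transcripts alone gave 1 and 0 in *GFI1-36S* vehicle and curcumin and 1 in *GFI1-36N* curcumin, and leaving out *Vpreb1* gave 1 and 0 in the *GFI1-36S* libraries.

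For single members, 72 of 90 values stayed within 10 rank points of the reported change. Of the 90, 10 took the other sign, 3 of them where the reported change was at least 10 points. The change of *Cd22* in *GFI1-36N* became −1.32 with 1 TSS per gene and −1.87 with TSSs of coding transcripts alone, since its curcumin peak lies at an internal TSS. The change of *Cd79b* in *GFI1-36S* became 42.92 with the treatments exchanged, and that of *Vpreb1* 7.62. The change of *Blnk* in *GFI1-36N* became 2.35 with a window of 3 kb. That of *Cd79b* in *GFI1-36N*, 0.68 as reported, lay between −5.28 and −0.24 in 5 settings. Peaks of 19 to 23 fragments lie near the weakest promoter peaks listed, so that presence at *Blnk*, *Cd22* and *Cd79a* is limited by depth.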

Other observations

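Several lymphoid genes outside the 9 had their strongest promoter rank in the library labelled *GFI1-36S* curcumin, and the 4 named were picked with their values in view. They come from the list of 35, of which 14 (40.0%) had a promoter peak in this library, beside 45.3% of all protein-coding genes. Other genes of that list went the other way, and *Syk*, *Btk*, *Plcg2* and *Pik3ap1* lacked a peak in this library alone. *Dntt*, which adds bases during receptor rearrangement, had rank 30.3 there and no peak in the other 5 libraries. *Lef1*, a transcription factor of early lymphoid cells, had rank 34.7 there, 4.07 in *GFI1-KD* vehicle and no peak elsewhere. *Pou2af1*, a coactivator in B cells, had rank 35.9 there and 12.6 in *GFI1-KD* vehicle. *Blk*, a kinase of BCR signalling, had rank 5.17 there and no peak in the other libraries. The same library had a peak at 14 of 14 T-cell promoters and at none of *Cd79b*, *Ebf1* and *Pax5*, and the part of T-lineage cells in these values was not tested.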
